A study of Mus musculus with 89 samples.

Results

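The combined loss of Esrrb and Nr5a2 in mouse embryonic stem cells (ESCs) kept in 2i/LIF was examined in 6 RNA-seq libraries, 3 of cells that lacked both factors and 3 of controls, out of 20 RNA-seq libraries and 89 samples in the series. They were chosen by their labels, and all genes were then compared between them. 2i/LIF is a serum-free medium with LIF and 2 kinase inhibitors, PD0325901 against Mek and CHIR99021 against Gsk3, in which ESCs are held close to the naive epiblast. All lines derive from EKOiE, which has no functional endogenous Esrrb and carries an Esrrb transgene induced by doxycycline (Dox), so the controls also carry the knockout. The controls (+E+N) were EKOiE cells with Dox at 1 µg/ml, and the double-loss cells (−E−N) were EKOiE NrKO cells, with both alleles of Nr5a2 disrupted in the exon of the DNA-binding domain, after 2 days without Dox. The other 2i/LIF states, with 3 libraries each, were EKOiE 2 days without Dox (−E) and EKOiE NrKO with Dox (−N). The effects of Dox removal and Esrrb loss, and those of Nr5a2 loss and the NrKO line, cannot be told apart in −E−N against +E+N. The comparison of −E−N with −N, both from the NrKO cells, compares cells of 1 genotype, and in that with −E both states were without Dox. NrKO clones were derived from single sorted cells, and the study showed RNA-seq of the disrupted alleles for a single clone, so what is particular to a clone cannot be told apart from the loss of Nr5a2. The replicates were described in the study as independent experiments, which the labels do not state.

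Esrrb and Nr5a2 are orphan nuclear receptors that bind as monomers to the same extended half-site, TCAAGGTCA or TCAAGGCCA. In ESCs they act beside Oct4 (encoded by Pou5f1), Sox2 and Nanog, in a network held active by LIF through Stat3 and, through Gsk3 inhibition, by relief of Tcf7l1 repression. Naive ESCs match the epiblast before implantation. Cells that leave this state pass through a formative and a primed phase before they form the germ layers, while trophectoderm and primitive endoderm are set aside earlier.

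The 6 libraries held between 27330885 and 32526534 estimated counts, of which mitochondrially encoded genes took between 2.84% and 3.35%. Values below are CPM (counts scaled to a fixed library total with the TMM factors) for replicates 1, 2 and 3 in that order. Esrrb was at 506, 601 and 599 CPM in +E+N and 169.8, 160.2 and 104 in −E−N (log2 fold change -1.97, SE 0.16, adjusted p = 2.2e-06). Its counts join reads of the transgene and of the disrupted endogenous gene. Nr5a2, whose counts include transcript of the disrupted alleles, was at 78.7, 69.7 and 61.3 CPM in +E+N and 45.7, 34.3 and 20.99 in −E−N (log2 fold change -1.05, SE 0.21, adjusted p = 0.0017). Both targeted genes were therefore lower in every −E−N library than in any control. Nr5a2 was also lower in −E−N than in −N, of the same genotype (log2 fold change -1.007, adjusted p = 0.0058). Against −E it was not called (log2 fold change -0.47, adjusted p = 0.11). Esrrb was lower in −E−N than in −E, which was also without Dox (log2 fold change -1.515, adjusted p = 2.9e-05). The falls in these counts are thus not a measure of either loss alone. The ESC markers Pou5f1, Sox2, Nanog, Zfp42, Klf4, Tfcp2l1 and Dppa5a were detected in all 6 libraries. Of 14 fibroblast genes 6 were tested, with 2 called higher and 1 lower, and their summed level was 25.8, 31.1 and 37.8 CPM in +E+N and 37.1, 34.4 and 47.96 in −E−N, with Postn, Prrx1, Dcn and Twist2 at 0 to 3 counts in every library. The fibroblast genes Lum and Col1a2 were higher in −E−N, Lum at 0, 1 and 0 counts in +E+N and 16, 12 and 17 in −E−N (below the count filter) and Col1a2 at 8, 1 and 1 and 29, 22 and 35. Both calls of a rise were lost without +E+N replicate 3 and with limma, and the fall with limma and without +E+N replicate 3, −E−N replicate 2 or −E−N replicate 3. Of 10 blood genes 3 were tested, with 0 called higher by edgeR and 1 lower (2 at an unadjusted p under 0.05; 0 higher and 1 lower with both DESeq2 and limma), their summed levels were 153, 113 and 105 and 144, 140.1 and 105 CPM, and Ptprc and Hbb-bs had no count in any of the 6 libraries. The part of such cells in the results was not tested. In these bulk samples, fewer cells of a type and less RNA per cell cannot be told apart.

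Relative to +E+N, −E−N cells had 1300 genes called higher and 1372 called lower, of 14355 tested (18.6% called, with 9.06% higher and 9.56% lower). A call needed a fold change over 1.5 and a p under 0.01 from the quasi-likelihood test of edgeR after Benjamini-Hochberg adjustment, the source of every adjusted p given here unless another tool is named. The median log2 fold change over all tested genes was 0.01. The 2 directions were close to equal in number and differed in the level in +E+N and the size of the change. Genes called lower had a median of 8.697 TPM (a relative level that allows for transcript length) in +E+N, and those called higher a median of 1.297 TPM. Over all tested genes it was 10.74 TPM. In −E−N the order was reversed, with 3.23 TPM for genes called lower and 4.72 TPM for those called higher. A gene could pass the count filter through −E−N alone, so the levels in +E+N follow in part from the choice of genes. Of the genes called higher, 587 lay under a mean of 1 TPM in +E+N, against 110 of those called lower. Rises of over 4-fold numbered 508 and falls of over 4-fold 335, and rises of over 16-fold 139 against 50 falls. The median log2 fold change of called genes was 1.57 for rises and -1.26 for falls. The libraries of the 2 states did not overlap in 7589 of all tested genes (52.9%). They did not overlap in any of the 1300 genes called higher and in 1371 of the 1372 called lower, so a lack of overlap sets no called gene apart.

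**Figure D1:**
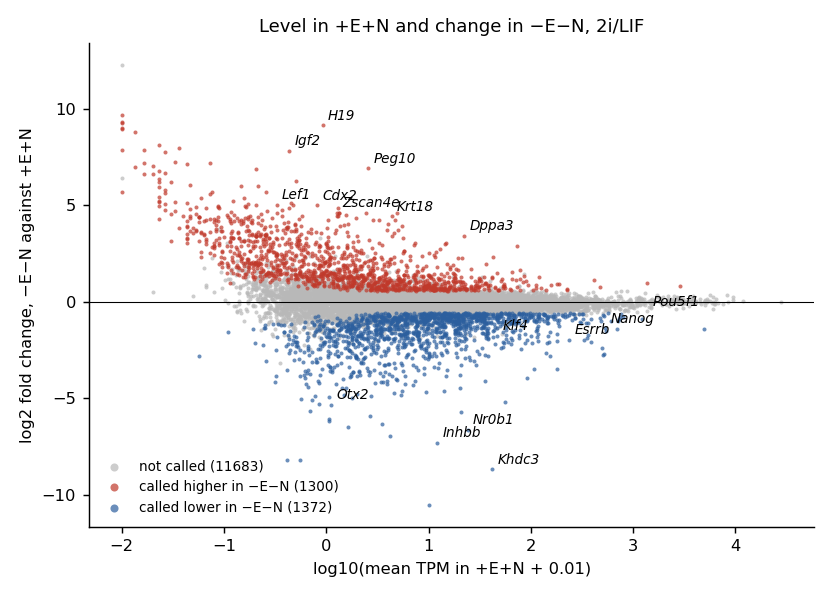
Each point is 1 of the 14355 tested genes, with its mean TPM in the 3 +E+N libraries on a log10 axis and its log2 fold change in −E−N against +E+N in 2i/LIF. The median in +E+N was 1.297 TPM for the 1300 genes called higher and 8.697 TPM for the 1372 called lower.

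The half-site was searched in the 300 bases around each start site (250 upstream, 50 downstream, RefSeq, build GRCm38.p6), as TCAAGGTCA or TCAAGGCCA on either strand, 2 forms that differ at 1 base and do not overlap. Windows matched 10522 of the tested genes, some with several start sites, and 0.642% of these 13396 windows held a match. Called genes had more windows each, with a mean of 1.35 for genes called lower and 1.27 for all. By gene, 20 of 1023 genes called lower had one (1.96%), 3 of 914 called higher (0.328%) and 84 of all 10522 (0.798%). With the calls of DESeq2 the share among genes called higher was 0.591%. A match is a description of the sequence and was not tested as a binding site. The stretches below are those of the 4 largest falls and the largest rise among called genes with a match upstream of a RefSeq start. They are written 5′ to 3′ on the strand of the gene, with the match in capitals.
Khdc3 (chr9:73102174-73102214, plus strand, log2 fold change -8.68): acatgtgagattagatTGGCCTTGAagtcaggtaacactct
Defb42 (chr14:63046856-63046896, plus strand, log2 fold change -3.13): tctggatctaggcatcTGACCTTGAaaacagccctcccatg
Bhmt (chr13:93637809-93637849, minus strand, log2 fold change -2.79): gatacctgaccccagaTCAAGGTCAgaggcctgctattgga
Jakmip1 (chr5:37050713-37050753, plus strand, log2 fold change -2.41): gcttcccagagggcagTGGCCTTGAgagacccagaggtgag
Cdcp1 (chr9:123216122-123216162, minus strand, log2 fold change 2.92): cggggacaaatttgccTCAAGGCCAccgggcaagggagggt
In Khdc3, Defb42 and Jakmip1 the match lay on the strand opposite to the gene, and in Bhmt and Cdcp1 on its own strand. The Khdc3 stretch is upstream of a RefSeq start but lies inside the span given for that gene below. Bhmt encodes the betaine-dependent methyltransferase of homocysteine, and Khdc3 had the largest ranked fall.

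Most genes of the naive list fell, and some of the central factors did. Of 26 naive genes tested, 17 were called lower and 2 higher, with a median log2 fold change of -1.07. The largest fall was that of Nr0b1 (chrX:86191764-86195947 in mm10), the orphan receptor Dax1, an ESC partner of Oct4. It was at 43.8, 26.98 and 27.9 CPM in +E+N and 0.586, 0.176 and 0.203 in −E−N, a gap with no overlap (log2 fold change -6.64, SE 0.45, adjusted p = 4.3e-07). The log2 fold change was -7.41 without −E−N replicate 1, which held the highest of the low values. Klf4, a LIF-induced factor of the naive network, was at 98.7, 121 and 113 CPM in +E+N and 28.6, 34.2 and 35.1 in −E−N (log2 fold change -1.77, SE 0.15, adjusted p = 2.5e-06). Further falls included the adhesion gene Jam2 (-3.96 on the log2 scale), the Ets factor Spic (-3.55), the Akt cofactor Tcl1 (-2.46), the ligand Fgf4 (-2.40), the T-box factor Tbx3 (-1.54), the 5-methylcytosine oxidase Tet2 (-1.46), Dppa5a (-1.39), Zfp42 (-1.12), Klf5 (-1.03), Tfcp2l1 (-0.85) and Zfp57, which protects imprints (-0.73).

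Some naive genes did not follow. Dppa3 (Stella), a maternal factor that protects DNA methylation in the zygote, was at 14.8, 11.2 and 7.7001 CPM in +E+N and 133, 109.97 and 122 in −E−N, far above every control (log2 fold change 3.43, SE 0.36, adjusted p = 1.3e-05). Gbx2, a homeobox gene downstream of LIF, rose from 50.6, 42.3 and 44.3 to 164, 181 and 185 CPM (log2 fold change 1.95, SE 0.11, adjusted p = 1.2e-07). Klf2 was at 263, 315 and 282 CPM in +E+N and 284, 303 and 225 in −E−N, 2 groups that overlapped (log2 fold change -0.08, SE 0.12, adjusted p = 0.62). Stat3, the effector of LIF, had a log2 fold change of 0.02 (SE 0.07, adjusted p = 0.84).

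Of the 8 central genes, 3 were called lower and 0 higher by edgeR, as with DESeq2 and limma (5 had an unadjusted p under 0.05), and the median log2 fold change was -0.68. Nanog was at 772, 927 and 1000.1 CPM in +E+N and 369, 343 and 333 in −E−N (log2 fold change -1.37, SE 0.10, adjusted p = 5.6e-07). Prdm14, a repressor that keeps DNA methylation low, had a log2 fold change of -1.37 (adjusted p = 1.5e-07), and Sox2 one of -0.88 (adjusted p = 0.00029). Pou5f1 was at 1373, 1323 and 1275 CPM in +E+N and 1090.2, 1039 and 730.2 in −E−N. Each −E−N value lay below each control value, and such a lack of overlap was seen in 52.9% of all tested genes. Pou5f1 was not called, as both its adjusted p of 0.011 and its fold change missed the thresholds (log2 fold change -0.47, SE 0.13). Utf1 (-1.36), Sall4 (-0.15), Smarca4 (-0.07) and Zfp281 (0.07) were not called.

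Formative and primed genes went both ways. Of 24 tested, 8 were called higher and 5 lower, with a median of 0.43; the study singled out several of them from these libraries, so the count is not independent evidence of a direction. Lef1, which activates Wnt targets with beta-catenin, rose from 0.946, 0.587 and 0.656 to 24.8, 26.7 and 21.03 CPM (log2 fold change 5.03, SE 0.30, adjusted p = 2.0e-07). The let-7 blocker Lin28a was at 74.1, 43.9 and 47.6 CPM in +E+N and 268, 280.3 and 265 in −E−N (log2 fold change 2.29, SE 0.20, adjusted p = 3.5e-06). The de novo methyltransferase Dnmt3b (1.23), its cofactor Dnmt3l (1.79), Sox11 (2.91), Lin28b (0.85) and the activin inhibitor Fst (2.38) also rose. Otx2, a homeobox gene that drives the formative transition, moved the other way, from 1.83, 1.43 and 1.35 CPM to 0, 0.0704 and 0.0339. In all, the −E−N libraries held 3 counts of it, and the ratio of summed counts of +E+N over −E−N was 45.7 (95% counting interval 15.3 to 224), which covers counting error only. Etv4 (-1.79), the amino acid transporter Slc7a3 (-1.72), Igfbp2 (-1.57) and Foxd3 (-1.05) fell too. Pou3f1 (0.50, adjusted p = 0.29), Zic2 (0.29, adjusted p = 0.27) and Grhl2 (0.62, adjusted p = 0.052) were not called, and Fgf5 was below the count filter. The plot of pluripotency genes shows these changes with their errors.

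**Figure D2:**
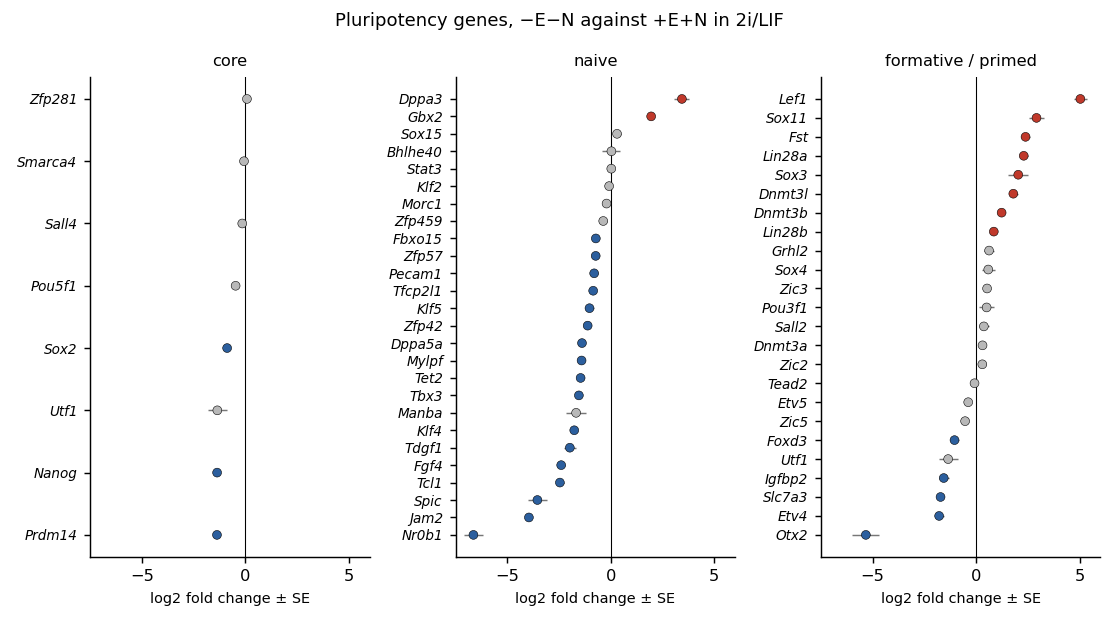
Log2 fold change in −E−N against +E+N in 2i/LIF for the tested genes of the central, naive and formative or primed lists, with bars of 1 standard error from the edgeR fit of 12 libraries. Red marks genes called higher, blue genes called lower and grey genes not called, and Nr0b1, at -6.64, and Lef1, at 5.03, are the ends of the range.

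Outside pluripotency, trophectoderm and 2-cell-stage lists had the highest shares of rises. Of 22 trophectoderm genes tested, 15 were called higher and 3 lower, with a median log2 fold change of 2.70, and their summed level was 161, 178 and 193 CPM in +E+N and 1720.3, 1849 and 4014 in −E−N. Igf2, described with the imprinted genes below, had the largest rise of this list (log2 fold change 7.84). The trophectoderm and imprinted lists are therefore not separate evidence. Peg10, an imprinted retrotransposon-derived gene needed in the placenta, made up much of that sum. It was at 12.7, 11.7 and 18.5 CPM in +E+N and 1044, 1187 and 2967 in −E−N (log2 fold change 6.92, SE 0.55, adjusted p = 1.5e-06), and −E−N replicate 3 was well above its fellows. Without that library its log2 fold change was 6.28. Cdx2, a homeobox gene of the trophectoderm that is also used in the posterior embryo, rose from 2.55, 0.661 and 1.04 to 40.5, 47.8 and 53.5 CPM (log2 fold change 5.03, SE 0.58, adjusted p = 2.8e-05). Without +E+N replicate 1, its highest control, the log2 fold change was 5.79. The simple-epithelium keratin Krt18 was at 3.66, 4.18 and 5.59 CPM in +E+N and 82.6, 76.6 and 131 in −E−N, and Krt8 at 10.5, 5.87 and 8.36 and 109.999, 91.97 and 185. Gcm1, a transcription factor of the labyrinth trophoblast that stood outside the list and was among the 10 largest rises, was at 0.063, 0.0367 and 0.0345 CPM in +E+N and 11.4, 9.79 and 16.6 in −E−N, a ratio of summed counts of 278 (95% counting interval 108 to 1021). Plac1, with 1 count in all controls, was at 2.802, 1.83 and 5.73 CPM in −E−N, a ratio of 305 (95% counting interval 54.3 to 12076).

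Not every trophectoderm regulator rose with them. Eomes, needed for trophoblast stem cells, was at 7.22, 9.95 and 11.7 CPM in +E+N and 2.74, 2.43 and 2.34 in −E−N (log2 fold change -1.94, SE 0.31, adjusted p = 0.00033). Tead4, which acts upstream of Cdx2 in the morula, fell from 29.9, 28.96 and 31.9 to 9.35, 11.2 and 8.45 CPM (log2 fold change -1.65, SE 0.11, adjusted p = 3.7e-07), and Tfap2a had a log2 fold change of -1.95 (adjusted p = 9.4e-06). Elf5 was below the count filter, with 1 to 8 counts in the controls and 15 to 16 in −E−N.

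Of 16 genes of the 2-cell embryo tested, 14 were called higher and 1 lower, with a median log2 fold change of 3.74. Their summed level was 58.8, 67.3 and 77.4 CPM in +E+N and 216, 219 and 497 in −E−N, so −E−N replicate 3 stood well above the other 2. The Zscan4 genes act at telomeres and mark a rare, passing state of ESCs. Zscan4e was at 1.32, 1.06 and 2.49 CPM in +E+N and 26.2, 26.7 and 67.7 in −E−N (log2 fold change 4.62, SE 0.57, adjusted p = 4.9e-05), and Zscan4f at 2.21, 3.38 and 5.21 and 40.99, 42.5 and 121. Their log2 fold changes were 4.02 and 3.54 without −E−N replicate 3. The copies of this family are near-identical, so how RSEM divided reads among them is uncertain. Pramel7, a LIF-dependent gene of the inner cell mass held in the same list, was at 1.48, 1.03 and 1.45 CPM in +E+N and 0.195, 0.106 and 0.0678 in −E−N (log2 fold change -3.37, SE 0.45, adjusted p = 7.9e-05).

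Genes of the oocyte and its subcortical maternal complex were split, with 2 called higher and 2 lower of 10 tested. The rises were of the near-identical Khdc1a and Khdc1b. DESeq2 called 0 of the 10 higher, and 6 of them had an unadjusted p under 0.05 in edgeR. The call of Khdc1b was lost without any 1 of the 3 controls. Khdc3 (chr9:73101836-73104438), a member of that complex that is also expressed in ESCs, had the largest fall of all ranked genes. It was at 47.4, 46.5 and 50.4 CPM in +E+N and 0.0652, 0.141 and 0.136 in −E−N (log2 fold change -8.68, SE 0.40, adjusted p = 3.5e-08). Ooep, its partner, was at 83.7, 96.4 and 100.1 and 25.97, 25.5 and 22.5 CPM (log2 fold change -1.92, SE 0.12, adjusted p = 1.9e-07). For both genes the −E−N libraries lay wholly below the controls, as for nearly all genes called lower. Khdc1a was at 0.599, 0.0367 and 0 CPM in +E+N and 14.6, 14.1 and 15.9 in −E−N, and its log2 fold change of 6.03 became 9.39 without +E+N replicate 1. DESeq2 gave it no adjusted p.

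**Figure D3:**
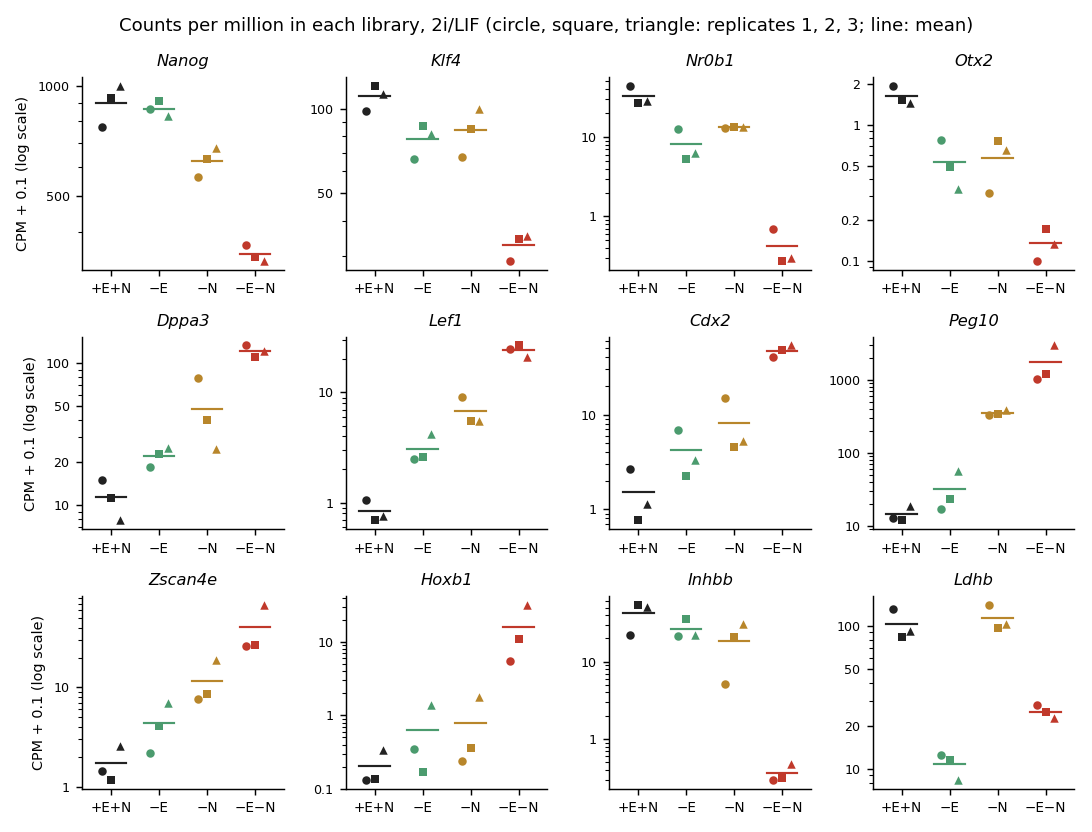
CPM plus 0.1 on a log axis for 12 genes in each library of the 4 states in 2i/LIF. Nanog, Klf4, Nr0b1, Otx2 and Inhbb were lowest and Dppa3, Lef1, Cdx2, Peg10, Zscan4e and Hoxb1 highest in −E−N, while Ldhb was lowest in −E.

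Genes of the primitive streak and mesoderm also moved in both directions, with 7 of 14 tested called higher, 4 lower (2 with limma) and a median of 1.41. Cdx2 and Cdx4, caudal-type genes of the posterior axis, and Foxa2, of streak and endoderm, rose with log2 fold changes of 5.03, 3.31 (adjusted p = 0.00033) and 3.12 (adjusted p = 3.2e-05). The organizer gene Gsc fell from 8.195, 10.2 and 8.32 to 1.47, 1.13 and 1.25 CPM (log2 fold change -2.79, SE 0.17, adjusted p = 2.5e-07), and the receptor Kdr had a log2 fold change of -3.56, or -4.49 without −E−N replicate 1. Of 5 mesoderm markers used to check cell types, T was at 88, 23 and 27 counts in the controls and 331, 306 and 104 in −E−N. Evx1 was at 18, 13 and 6 and 27, 68 and 8 counts, and Tbx6 at 11, 6 and 11 and 7, 3 and 12. Mesp1 had at most 2 counts and Mixl1 at most 35 in any library.

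Among 14 somite and Notch genes tested, 4 were called higher and 2 lower. The Notch ligand Dll1 was at 0.0946, 0.404 and 0.0691 CPM in +E+N and 3.095, 3.204 and 5.77 in −E−N (log2 fold change 4.42, SE 0.54, adjusted p = 4.1e-05). Without +E+N replicate 2 its log2 fold change was 5.54. Lfng, which modifies Notch, had one of 2.98 (adjusted p = 8.5e-05). The log2 fold change of the somite gene Meox1 was 7.86, or 6.84 without −E−N replicate 3. It was at 0, 0.0367 and 0 CPM in +E+N and 1.53, 2.08 and 7.36 in −E−N, on 1 control count in all, with a ratio of summed counts of 321 (95% counting interval 57.1 to 12704). The Notch target Hes1 fell from 46.5, 57.5 and 55.1 to 12.2, 14.4 and 10.6 CPM (log2 fold change -2.09, SE 0.13, adjusted p = 2.1e-07), and the proprotein convertase Pcsk6 from 62.2, 65.9 and 77.7 to 16.9, 17.7 and 15.3 (log2 fold change -2.04, SE 0.11, adjusted p = 9.8e-08).

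Hox genes, which pattern the body axis, moved in both directions. Of 22 tested, 3 were called higher and 5 lower, with all falls among the 5′ posterior paralogue groups. Hoxb1 was at 0.0315, 0.0367 and 0.242 CPM in +E+N and 5.34, 10.7 and 31.8 in −E−N (log2 fold change 7.22, SE 1.19, adjusted p = 0.00041), with replicate 3 the highest in both states. Its log2 fold change was 6.23 without −E−N replicate 3 and 8.70 without +E+N replicate 3. Hoxc12 fell from 5.52, 4.99 and 4.35 to 0.261, 0.317 and 0.271 CPM (log2 fold change -4.11, SE 0.27, adjusted p = 3.6e-07) and Hoxb13 from 2.52, 2.68 and 2.83 to 0.326, 0.317 and 0.441 (log2 fold change -2.87, SE 0.25, adjusted p = 3.2e-06). In a fit without −E−N replicate 1, 6 Hox genes were called higher, and 10 with no filter on low counts. With a replicate block, 9 were called higher and 7 lower. Hoxb2 was at 0.0315, 0.33 and 0.311 and 0.847, 4.72 and 16.9 CPM, and its call was lost without any 1 of 5 of the 6 libraries, for example at an adjusted p of 0.035 and a log2 fold change of 3.64 without −E−N replicate 3.

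Neural genes gave 4 rises and 4 falls of 13 tested. Tubb3, the neuronal tubulin, fell from 47.3, 28.2 and 30.5 to 6.71, 2.99 and 4.78 CPM (log2 fold change -2.87, SE 0.34, adjusted p = 3.6e-05), and the adhesion molecule Ncam1 had a log2 fold change of -1.91 (adjusted p = 6.0e-06), while Pax6, a regulator of eye and forebrain, had one of 1.94 (adjusted p = 0.00091). The list gave 2 rises and 2 falls without −E−N replicate 2, without +E+N replicate 1 or 2 it gave 2 rises, and with limma 2 rises and 3 falls. In neural crest and border genes, 4 of 12 were called higher and 1 lower. Msx1, a Bmp-responsive homeobox gene of that border, was at 0.504, 0.918 and 0.38 CPM in +E+N and 3.03, 8.49 and 20.3 in −E−N (log2 fold change 4.14, SE 0.59, adjusted p = 0.00014), or a log2 fold change of 3.26 without −E−N replicate 3.

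Of 16 primitive endoderm genes tested, 5 were called higher and 3 lower. Serpinh1, a collagen chaperone, rose from 102, 153 and 127 to 378, 409.8 and 412 CPM (log2 fold change 1.65, SE 0.13, adjusted p = 1.4e-06). Lama1, the laminin chain of the first basement membrane, fell from 39.1, 48.8 and 43.3 to 1.24, 1.13 and 2.17 CPM (log2 fold change -4.85, SE 0.28, adjusted p = 1.5e-07), and the matrix protein Sparc had a log2 fold change of -1.54 (adjusted p = 1.3e-05). The defining factor Gata6 was below the count filter, and Gata4, called lower (-1.52, adjusted p = 0.0082), held 6 to 36 counts per library and lost its call without any 1 of the 6 libraries (adjusted p = 0.012 to 0.034). Other markers used to check cell types differed, given here as counts in +E+N and then −E−N. Sox17 was at 5, 7 and 19 and 22, 42 and 75, and Pdgfra at 40, 29 and 43 and 78, 71 and 110. Sox7 was at 1, 2 and 13 and 5, 4 and 3, and Dab2 at 96, 22 and 64 and 27, 36 and 52.

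Germline genes tended down, with 8 of 28 called lower, 3 higher and a median of -0.35. The receptor Kit, of germ cells and their precursors, fell from 259.9, 277 and 276 to 54.9, 64.1 and 67.3 CPM (log2 fold change -2.13, SE 0.11, adjusted p = 9.8e-08). The testis tubulin Tuba3a, which has a close copy in Tuba3b, was at 352, 489 and 426 and 105, 108 and 90.8 CPM (log2 fold change -2.06, SE 0.12, adjusted p = 2.0e-07). The meiotic cohesin Rec8 (1.36, adjusted p = 0.00075) and the piRNA factor Tdrd1 (2.29, adjusted p = 0.00015) rose from low levels.

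Imprinted genes included the largest of all ranked rises. Of 41 tested, 17 were called higher and 2 lower, with a median of 0.54. Of the falls, 1 was called with limma, and that of Trappc9 was lost without any 1 library except +E+N replicate 1. H19, a maternally expressed noncoding RNA (chr7:142575529-142578143), was at 1.45, 1.21 and 1.97 CPM in +E+N and 709.6, 639 and 1338 in −E−N (log2 fold change 9.17, SE 0.37, adjusted p = 2.0e-08). Its neighbour Igf2, the paternally expressed growth factor (chr7:142650766-142666816), was at 0.756, 0.697 and 0.898 and 159, 151 and 234 CPM (log2 fold change 7.84, SE 0.24, adjusted p = 2.6e-09). The organic cation transporter Slc22a3, with 3 counts over the 3 controls, was at 8.83, 9.37 and 14.3 CPM in −E−N, a ratio of summed counts of 317 (95% counting interval 108 to 1542). All of those counts were in +E+N replicate 3. The growth inhibitor Cdkn1c rose from 1.702, 1.03 and 1.59 to 10.8, 6.41 and 13.3 CPM (log2 fold change 2.82, SE 0.32, adjusted p = 2.4e-05). H19, Igf2, Igf2os and Cdkn1c lie on distal chromosome 7, and Igf2os is antisense to Igf2 and was told apart from it only through the strand of the libraries.

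Signalling genes were read by role. In the Wnt list, 13 of 26 were called higher and 2 lower, with a median of 0.80. Wnt8a, a ligand of the streak, was at 0.158, 0.11 and 0.483 CPM in +E+N and 15.8, 22.6 and 51.7 in −E−N (log2 fold change 6.88, SE 0.75, adjusted p = 1.9e-05), and the target Lgr5 at 0.0946, 0.0367 and 0 and 2.77, 4.51 and 4.95 CPM, a ratio of summed counts of 89.1 (95% counting interval 34.5 to 329). Wnt8a had a log2 fold change of 6.23 without −E−N replicate 3 and 7.75 without +E+N replicate 3. The receptor Fzd5 fell from 114, 124 and 117 to 38.4, 41.8 and 29.4 CPM (log2 fold change -1.70, SE 0.13, adjusted p = 1.3e-06), and the Wnt inhibitor Apcdd1 had a log2 fold change of -1.56 (adjusted p = 1.3e-06).

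In the Nodal and activin list, 5 of 16 were called higher and 4 lower (8 and 4 with DESeq2, and 3 and 4 without −E−N replicate 3). The genes of 2 ligands fell. Inhbb, the activin beta B subunit, was at 21.7, 53.8 and 50.6 CPM in +E+N and 0.195, 0.211 and 0.373 in −E−N (log2 fold change -7.31, SE 0.77, adjusted p = 1.4e-05), and Nodal at 59.9, 63.2 and 62.8 and 12.5, 7.54 and 6.24 (log2 fold change -2.82, SE 0.23, adjusted p = 2.2e-06). The coreceptor Tdgf1 had a log2 fold change of -1.98 (adjusted p = 0.00013). The inhibitor Lefty1, itself a Nodal target, rose from 6.11, 6.46 and 4.32 to 67.4, 36.9 and 64.8 CPM (log2 fold change 3.32, SE 0.26, adjusted p = 1.6e-06).

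Of 21 genes of the LIF pathway, 9 were called lower and 1 (Gbx2) higher, with a median of -0.46. The kinase Pim1 fell from 125, 118 and 111 to 35.5, 40.95 and 30.02 CPM (log2 fold change -1.73, SE 0.10, adjusted p = 1.2e-07), beside Klf4 and Pramel7. Among Fgf ligands and receptors, 5 of 12 were called higher and 4 lower (4 and 2 with limma). The ligand Fgf4 was at 133, 131 and 109 CPM in +E+N and 27.99, 26.02 and 16.9 in −E−N (log2 fold change -2.40, SE 0.20, adjusted p = 2.0e-06), and the receptor Fgfr2, which is low in naive cells, at 0.693, 1.58 and 2.21 and 14.1, 14.96 and 23.3 (log2 fold change 3.55, SE 0.35, adjusted p = 9.2e-06). Without +E+N replicate 2 or −E−N replicate 2, 3 Fgf genes were called higher. Erk response genes gave 3 rises and 1 fall of 17, with the phosphatase Dusp4 at 2.48 (adjusted p = 0.00021) and Etv4 at -1.79 (adjusted p = 3.4e-05).

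In the retinoid list 6 of 14 were called higher and 3 lower. The rises included those of a binding protein and an uptake receptor. Crabp2, which carries retinoic acid to its receptors, rose from 2.396, 3.67 and 2.83 to 26.7, 30.7 and 61.9 CPM (log2 fold change 3.75, SE 0.31, adjusted p = 2.4e-06), and the uptake receptor Stra6 had a log2 fold change of 3.40 (adjusted p = 6.3e-05). The synthetic enzyme Aldh1a3 was at 1.42, 1.43 and 1.52 CPM in +E+N and 0.0977, 0.106 and 0.102 in −E−N, with 9 counts over the −E−N libraries and a ratio of summed counts, +E+N over −E−N, of 14.3 (95% counting interval 7.31 to 32.05). Of the receptors, Rara fell (-0.71, adjusted p = 0.00042) and Rarg rose (0.74, adjusted p = 0.0021, not called without +E+N replicate 2 or −E−N replicate 2). In the list of nuclear receptors, which also holds Rara and Rarg, 3 of 23 tested were called higher and 3 lower (6 and 3 with DESeq2, and also with no filter on low counts). Pparg, a regulator of fat cells and the placenta, was at 0, 0 and 0.0345 CPM in +E+N and 2.18, 1.65 and 2.31 in −E−N, on 1 control count, with a ratio of summed counts of 181 (95% counting interval 32.02 to 7175). Nr6a1, the germ cell nuclear factor that represses Pou5f1, rose from 60.1, 77.3 and 86.8 to 161, 197 and 271 CPM (log2 fold change 1.49, SE 0.27, adjusted p = 0.00081).

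For Bmp genes the counts were 4 higher and 2 lower (1 with limma) of 18, led by the ligand Bmp8b (3.35, adjusted p = 0.00013) and, downwards, the inhibitory Smad7 (-1.37, adjusted p = 1.4e-05). For the Hippo pathway they were 4 and 1 of 16. Amot, a Yap-binding scaffold on the X chromosome, rose from 1.26, 0.991 and 1.21 to 11.99, 10.3 and 10.8 CPM (log2 fold change 3.25, SE 0.18, adjusted p = 1.2e-07), and the Yap target Ccn2 had a log2 fold change of 1.74 (adjusted p = 8.5e-06).

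**Figure D4:**
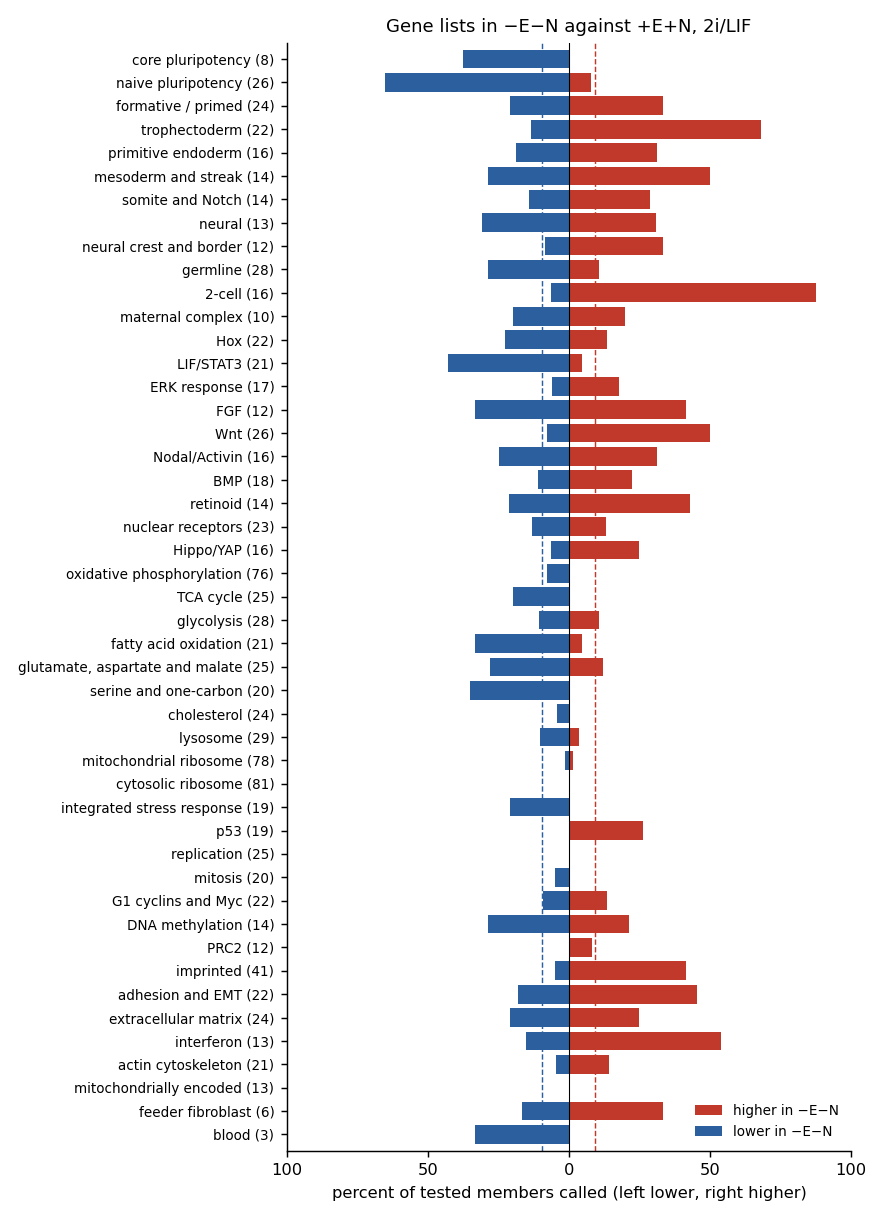
Percent of the tested members of each gene list (number tested in parentheses) called higher (red, right) or lower (blue, left) in −E−N against +E+N in 2i/LIF, with dashed lines at the 9.06% and 9.56% of all genes. The naive list has the highest share of falls and the 2-cell list the highest share of rises.

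None of 76 nuclear-encoded respiratory chain subunits was called higher by edgeR, DESeq2 or limma and 6 were called lower by each, with a median log2 fold change of -0.21 (48 had an unadjusted p under 0.05). The share called lower by edgeR, 7.89%, was below the 9.56% of all tested genes. Cox5a fell from 254, 264 and 261 to 157, 154 and 139.9 CPM (log2 fold change -0.79, SE 0.07, adjusted p = 2.3e-06), and Cox7a1, an isoform best known from muscle, had a log2 fold change of -1.85 (adjusted p = 1.6e-05). The 13 mitochondrially encoded genes had no call with edgeR, DESeq2 or limma (2 at an unadjusted p under 0.05). In pyruvate entry and the tricarboxylic acid cycle, 0 of 25 were called higher by edgeR or DESeq2 or limma and 5 lower (17 at an unadjusted p under 0.05), with the pyruvate carrier Mpc1 at -1.48 (adjusted p = 2.5e-05) and Idh2 at -1.26 (adjusted p = 1.1e-05).

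Fatty acid oxidation had 7 falls and 1 rise of 21. Its gatekeeper Cpt1a, which loads fatty acids on carnitine, was at 173, 144 and 155 CPM in +E+N and 43.95, 38.5 and 22.1 in −E−N (log2 fold change -2.18, SE 0.20, adjusted p = 5.2e-06), and the carnitine carrier Slc25a20 was called lower too (-1.001, adjusted p = 3.0e-05). The rise, of Acot2, was lost without any 1 of 4 libraries (+E+N replicates 1 and 2, −E−N replicates 2 and 3; adjusted p = 0.011 to 0.023). In glycolysis 3 of 28 were called higher and 3 lower (10.7% each way), close to the 9.06% and 9.56% of all tested genes. Ldhb, the lactate dehydrogenase subunit that favours pyruvate, was at 131, 83.1 and 92.6 CPM in +E+N and 27.8, 24.8 and 22.7 in −E−N (log2 fold change -2.03, SE 0.19, adjusted p = 7.0e-06), and the hexokinase Hk1 had a log2 fold change of -1.50 (adjusted p = 5.5e-07). The 3 rises, of Ldha, Eno3 and Slc2a1, were each lost in 4 or 5 of the 6 refits without 1 library, all 3 of them without +E+N replicate 3, and limma called 1 glycolysis gene higher.

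Serine and one-carbon metabolism had 7 falls of 20 and 0 rises with edgeR, DESeq2 or limma (12 at an unadjusted p under 0.05), with a median of -0.31. Mthfd2, of the mitochondrial folate cycle, fell from 135, 138 and 136 to 35.1, 43.3 and 51.1 CPM (log2 fold change -1.66, SE 0.18, adjusted p = 1.5e-05), and Cbs and Aldh1l1 had log2 fold changes of -1.55 and -1.51. Glutamate, aspartate and malate metabolism had 7 falls and 3 rises of 25. The glutamate transporter Slc1a1 fell from 8.605, 6.61 and 10.4 to 0.456, 0.246 and 0.678 CPM (log2 fold change -4.20, SE 0.38, adjusted p = 4.2e-06), whereas glutamine synthetase, Glul, rose from 75.6, 78.3 and 73.2 to 192, 195 and 170.4 (log2 fold change 1.30, SE 0.08, adjusted p = 1.7e-07). Of 24 cholesterol genes 1 was called lower, Pmvk (-0.86, adjusted p = 9.3e-05), and 0 higher with edgeR, DESeq2 or limma (17 at an unadjusted p under 0.05; 2 lower without −E−N replicate 3). Lysosomal genes gave 1 rise and 3 falls of 29 (3.45% and 10.3%, against 9.06% and 9.56% of all tested genes), with Lgmn at -1.34 (adjusted p = 2.9e-06). The rise, of Ctsz, was lost with limma and without +E+N replicate 1, −E−N replicate 2 or −E−N replicate 3.

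The machinery of growth and division was close to level. None of 81 cytosolic ribosomal protein genes was called by edgeR, DESeq2 or limma (16 at an unadjusted p under 0.05; 1 lower without +E+N replicate 1), with a median of 0.04. Of 78 mitochondrial ones 1 was called higher (Mrpl23, 0.89, adjusted p = 5.7e-05) and 1 lower (Mrps12, lost without +E+N replicate 1 or 2 or −E−N replicate 3). None of 25 DNA replication genes was called by these 3 tools (14 at an unadjusted p under 0.05), and of 20 mitotic genes 1 was, Cdk1, at -0.59 (adjusted p = 5.9e-05), a fold that dropped under 1.5 without +E+N replicate 2 or 3 or −E−N replicate 3. Of 22 genes of G1 and the Myc family, 3 were higher and 2 lower, with the inhibitor Cdkn1a rising from 169, 149 and 133 to 289, 277 and 253 CPM (log2 fold change 0.86, SE 0.14, adjusted p = 0.00033) and the inhibitor Cdkn1b falling (-0.73, adjusted p = 0.001). Of 19 p53 target genes 5 were called higher and 0 lower by edgeR, DESeq2 or limma (12 at an unadjusted p under 0.05; 1 lower without −E−N replicate 3). Phlda3, which restrains Akt, rose from 36.2, 46.1 and 49.4 to 176, 203 and 286 CPM (log2 fold change 2.33, SE 0.17, adjusted p = 8.9e-07). Amino acid and unfolded protein stress genes had 4 falls of 19 and 0 rises with edgeR or limma (1 with DESeq2; 9 at an unadjusted p under 0.05), led by Nupr1, which was at 64.7, 73.05 and 75.3 CPM in +E+N and 6.35, 12.04 and 15.6 in −E−N (log2 fold change -2.65, SE 0.33, adjusted p = 5.2e-05), and Trib3 (-1.50, adjusted p = 0.00015).

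Among chromatin genes, DNA methylation genes gave 3 rises and 4 falls of 14. Dnmt3b was at 120.3, 88.7 and 101 CPM in +E+N and 247, 263 and 216 in −E−N, and Tet1, which oxidizes 5-methylcytosine, at 327, 347 and 347 and 159.8, 157 and 93.03 (log2 fold change -1.32, SE 0.16, adjusted p = 4.8e-05). The rises were of Dnmt3l, Dnmt3b and Mbd2, and the falls included those of Tet1, Tet2 and Prdm14. The call of Mbd2 was lost with limma, which gave 2 rises, and without −E−N replicate 3. Of 12 Polycomb repressive complex 2 genes 1 was called higher and 0 lower with edgeR and DESeq2 (2 higher with limma and without 1 of 3 libraries, +E+N replicate 1 or 2 or −E−N replicate 1; 9 at an unadjusted p under 0.05). It was the X-linked histone chaperone Rbbp7, at 322, 293 and 317 and 582, 571 and 633 CPM (log2 fold change 0.94, SE 0.07, adjusted p = 5.6e-07).

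Adhesion and epithelial-mesenchymal genes gave 10 rises and 4 falls of 22 (9 and 1 with limma, and 2 falls without any 1 of 4 libraries, +E+N replicates 2 and 3 and −E−N replicates 1 and 2). The epithelial splicing factor Esrp1 (3.65, adjusted p = 1.1e-05) and the mesenchymal repressor Zeb2 (3.48, adjusted p = 8.8e-06) both rose, although they are known for opposite programmes. The fibronectin receptor chain Itga5 fell from 109, 141 and 146 to 44.7, 53.2 and 56.4 CPM (log2 fold change -1.36, SE 0.14, adjusted p = 1.5e-05). Matrix genes gave 6 rises and 5 falls of 24, with the basement membrane linker Nid1 going from 283, 286 and 252 to 59.4, 53.6 and 51.4 CPM (log2 fold change -2.32, SE 0.11, adjusted p = 3.4e-08) and the proteoglycan Vcan at 1.55 (adjusted p = 4.4e-06). Of 13 interferon response genes 7 were higher and 2 lower (1 lower with limma, with no filter on low counts and in 5 of the 6 refits without 1 library, all except that without −E−N replicate 1). Oasl2 rose from 0.315, 0.44 and 0.725 to 4.99, 5.67 and 8.38 CPM (log2 fold change 3.68, SE 0.38, adjusted p = 1.1e-05), while Oas1a fell (-1.46, adjusted p = 0.00011). Actin and contractility genes gave 3 rises and 1 fall of 21 (2 falls without any 1 of +E+N replicates 2 and 3 and −E−N replicates 1 and 2), with the contractile gene Tagln at 3.93 (adjusted p = 8.1e-06) and Cald1 at -0.999 (adjusted p = 0.00014).

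Called genes averaging 100 counts or more, and with 1 direction of change in all 3 same-numbered pairs, were ranked by size (1859 genes), and among them the 10 largest rises were H19, Slc22a3, Gcm1, Igf2, Gbp2, Hoxb1, Igf2os, Peg10, Wnt8a and Shisal1, and the 10 largest falls Khdc3, Inhbb, Nr0b1, Ddr2, Dpp4, Ly6a, Gm33027, Zan, Slc28a3 and Lama1. The collagen receptor Ddr2 was at 18.9, 28.7 and 25.7 CPM in +E+N and 0.358, 0.246 and 0.271 in −E−N (log2 fold change -6.36, SE 0.30, adjusted p = 4.7e-08). The surface peptidase Dpp4 was at 64.6, 82.6 and 97.4 and 1.08, 1.34 and 2.31 (log2 fold change -5.69, SE 0.40, adjusted p = 6.2e-07), and the surface antigen Ly6a (Sca1) at 34.1, 28.2 and 33.3 and 0.88, 0.739 and 0.95 (log2 fold change -5.21, SE 0.18, adjusted p = 6.6e-09). In these 3 genes of the cell surface the −E−N libraries lay close together and far below the controls. Gbp2, an interferon-inducible GTPase, was at 0.063, 0.0734 and 0 CPM in +E+N and 7.14, 6.87 and 9.16 in −E−N, a ratio of summed counts of 169.8 (95% counting interval 65.998 to 625).

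Sorted by symbol stem, 90 families had at least 15 protein-coding members tested. Among them the Zscan stem, of zinc finger genes with a SCAN domain, had the highest share of rises (8 of 19). This stem takes in Zscan4 genes described above, so its share is not separate evidence. How reads were divided among those near-identical copies is uncertain. The Myo stem, mostly myosins, had the highest share of falls (6 of 20, with 1 rise). Fbxo genes, the F-box substrate adaptors, gave 9 falls and 1 rise of 31. These shares stand against a background of 9.06% rises and 9.56% falls, and the families were picked after all 90 were seen. By chromosome, the X had 110 rises and 34 falls of 525 tested (20.95% and 6.48%) and a median log2 fold change of 0.17. Its median was 0.06 in −E and 0.07 in −N, each against the same controls, and 0.10 in −E−N against −N. The autosomes had medians between -0.05 and 0.11.

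Part of the double-loss pattern was present in cells that lacked Nr5a2 alone. H19 was at 265, 241 and 229 CPM in −N and 3.57, 2.69 and 5.33 in −E, against 1.45, 1.21 and 1.97 in +E+N. Igf2 was at 71.6, 64.2 and 53.7 CPM in −N and 0.856, 1.03 and 1.33 in −E, and Peg10 at 335, 340.3 and 382 and 16.8, 22.8 and 55.6. Each was thus far above the controls in −N, which carries the NrKO line. In −E, H19 lay above every control, and Igf2 and Peg10 reached from within the control range to above it. In −E−N they were higher again than in −N, with log2 fold changes of 1.87 (adjusted p = 0.00034) for H19, 1.52 (adjusted p = 6.3e-05) for Igf2 and 2.30 (adjusted p = 0.0032) for Peg10 in the same test. Ddr2, by contrast, was at 0.498, 0.908 and 0.849 CPM in −N and 18.5, 27.2 and 17.03 in −E, and its difference of −E−N from −N was not called (log2 fold change -1.34, SE 0.39, adjusted p = 0.031), but was with a replicate block (log2 fold change -1.33, SE 0.33, adjusted p = 0.0082).

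Against −N, 487 genes were called higher in −E−N (3.39%) and 483 lower (3.36%), and a fit with a replicate block gave 936 and 686, or 1622 in place of 970 in all. Among them were 13 of 26 naive genes called lower and 1 higher, and 3 of 8 central genes called lower. Of 22 trophectoderm genes 14 were higher and 2 lower, and of 16 2-cell genes 6 and 1. With the block, 14 2-cell genes and 2 naive genes were called higher. Inhbb was at 5.08, 20.5 and 30.4 CPM in −N and 0.195, 0.211 and 0.373 in −E−N (log2 fold change -6.14, SE 0.78, adjusted p = 0.00027), and Nr0b1 at 12.8, 13.1 and 13.4 and 0.586, 0.176 and 0.203 (log2 fold change -5.31, SE 0.45, adjusted p = 1.7e-05). Jam2 (-3.44, adjusted p = 3.7e-07), Fgf4 (-2.16, adjusted p = 2.6e-05) and Ly6a (-4.18, adjusted p = 1.7e-07) fell as well. The total rested in part on single libraries, with 510 calls without −N replicate 2, 561 without −N replicate 3 and 599 without −E−N replicate 3.

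Against −E, which shares the absence of Dox, 991 genes were called higher (6.9%) and 892 lower (6.21%). They took in 15 of 26 naive genes lower and 2 higher, 13 of 22 trophectoderm genes higher and 2 lower, and 12 of 16 2-cell genes higher and 1 lower. Ldhb stood apart from this pattern. It was at 12.3, 11.4 and 8.26 CPM in −E and 139.9, 97.1 and 102 in −N, so that −E−N, at 27.8, 24.8 and 22.7, was above −E (log2 fold change 1.23, SE 0.20, adjusted p = 0.00068) and below −N (log2 fold change -2.17, SE 0.20, adjusted p = 2.6e-05). Lefty1, at 61.7, 84.3 and 60.5 CPM in −N, did not differ past the threshold between −E−N and −N (log2 fold change -0.29, SE 0.23, adjusted p = 0.42).

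**Figure D5:**
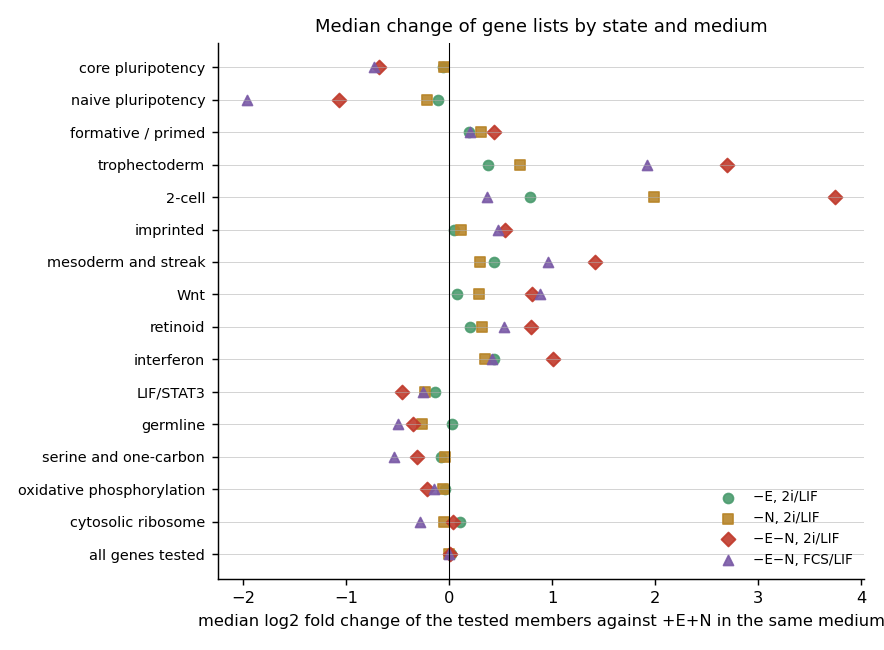
Median log2 fold change of the tested members of 15 gene lists and of all genes, against +E+N of the same medium, for −E, −N and −E−N in 2i/LIF and −E−N in FCS/LIF. The 3 states of 2i/LIF share the same 3 control libraries, and in −E−N the 2-cell median was 3.74 and the naive median -1.07. The FCS/LIF medians are over members tested in the fit of all 20 libraries, for example 19 2-cell genes against 16 in 2i/LIF.

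In FCS/LIF, a serum medium in which the same states were measured in 2 libraries each, the response to the double loss differed from that in 2i/LIF for many genes. The difference of the log2 fold changes, 2i/LIF minus FCS/LIF, was called positive in 958 genes (5.93%) and negative in 1178 (7.3%) of 16147, at an adjusted p under 0.01 in a fit of all 20 libraries, but in 520 and 1705 with limma. Of the naive genes, 26 were tested and their median in FCS/LIF was -1.96. The difference was positive in 12 of them and negative in 1. Zfp42 had a log2 fold change of -3.42 in FCS/LIF and -1.12 in 2i/LIF (difference 2.28, SE 0.17, adjusted p = 1.6e-07). Klf2, not called in 2i/LIF, had -2.19 in FCS/LIF (difference 2.09, SE 0.18, adjusted p = 7.5e-07). Of 19 2-cell genes the difference was positive in 12, and of 24 trophectoderm genes in 12, with 2 negative, whereas limma gave 7 positive for the 2-cell list and 7 positive and 5 negative for the trophectoderm list. For the naive list it gave 9 and 2. Lef1 had a log2 fold change of 0.20 in FCS/LIF against 5.03 in 2i/LIF, and Dppa3 one of -0.52 against 3.43. The medium cannot be told apart from any other difference between the 2 sets of libraries, and with any 1 of the 4 FCS/LIF libraries left out between 1220 and 1375 genes were called in all, in place of 2136.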

How the data were processed

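PolyA-selected, stranded, paired-end RNA-seq libraries were aligned by the authors to mm10 with STAR and quantified with RSEM, with versions not given in the sources used here. The authors deposited estimated counts, rounded to whole numbers, and TPM (length-scaled relative levels) per gene. In the expected count table, 92 rows of ERCC spike-ins without counts were left out. Symbols are gene names of the GENCODE annotation where the gene identifier matched (54079 of 54146), and those of the files elsewhere. Of them, 1007 differ from the symbols in the files. Counts were fitted for all genes with edgeR 4.0.16 (R 4.3.3), with TMM factors, 1 coefficient per state and the quasi-likelihood test, over the 12 libraries of 2i/LIF. Genes needed at least 20 counts in all replicates of 1 state. Calls needed a Benjamini-Hochberg adjusted p under 0.01 and a fold over 1.5, and differences between media, from 1 fit of the 20 libraries, an adjusted p under 0.01 alone. DESeq2 1.42.0, limma 3.58.1 on log2(TPM + 1), other filters and scalings, a replicate block and omission of each library were alternatives. Scripts were tested on simulated data.

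Same-numbered libraries deviated together in −E−N and −N (r = 0.421, 0.155 and 0.45 across genes) and in −E−N and −E (r = 0.448, 0.106 and 0.441), a hint of pairs that the labels do not state. The main fit used the state alone, without pairs, and the replicate block was an alternative. All pairs of replicates differed beyond counting noise. The text names Esrrb, Nr5a2, the 3 pluripotency lists, up to 3 rises and 3 falls of each other list, markers, and the 10 largest rises and falls over called genes averaging 100 counts or more. Genes compared between media and the families named were chosen after values were seen. The 47 gene lists, 52 pairs of which share genes, and all groups were chosen with earlier results of these data known. Some genes are not reported here.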

Additional observations from a re-analysis of the deposited data

Results flagged for a closer look

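The response to the double loss differed between media in 2136 genes by the test of the difference itself. For 16 of them, chosen after values were seen, the difference of the log2 fold changes (2i/LIF minus FCS/LIF, 3 and 2 libraries per state) is given here, each called at an adjusted p under 0.01 by edgeR. Log2 fold changes were higher in 2i/LIF for the imprinted H19 (6.11), Igf2 (6.26) and Peg10 (4.65), the trophoblast factor Gcm1 (6.33), the 2-cell gene Zscan4e (4.30), Lef1 (4.82), Dppa3 (3.94) and Gbx2 (2.21). They were also higher in 2i/LIF for the naive genes Klf2 (2.09), Klf4 (1.41), Zfp42 (2.28) and Tfcp2l1 (1.42). Differences were negative for Otx2 (-3.67), Eomes (-3.20), Tead4 (-2.28) and Cpt1a (-1.75). Eomes had a log2 fold change of 1.24 in FCS/LIF and -1.94 in 2i/LIF, and Tead4 one of 0.62 and -1.65.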

How the results depend on the processing

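For −E−N against +E+N, the count of called genes stayed within 1.5 times of 2672 under every alternative tried (2192 to 2518 with 1 library left out), as did that against −E. Between same-numbered libraries of −E−N and +E+N, r was 0.375, -0.0126 and 0.357, so replicate 2 did not deviate together in these states. Of the 12 libraries, 11 correlated best with their own number, and a replicate block gave 3286 calls. Of 202 named genes called, 160 kept the call in every alternative run, 26 lost it with limma, 2 with DESeq2, 32 without at least 1 library and 0 with the replicate block. Against −N, the block gave 1622 calls in place of 970 (936 higher in place of 487), limma gave 318 lower in place of 483, and omission of 1 library gave 510 to 856 in all, 180 to 448 higher and 312 to 484 lower. The difference between media gave 3703 calls with the block in place of 2136 (1719 higher in place of 958, 1984 lower in place of 1178), 520 higher and 1705 lower with limma, 1586 higher with no filter on low counts and, without 1 library, 1220 to 2184 in all, 598 to 1050 higher and 622 to 1161 lower. Among genes not called, the log2 fold change of Bhlhe40 was between -0.28 and 0.35 without 1 library, that of Klf2 between -0.17 and 0.032, and that of Stat3 between -0.023 and 0.084, with -0.0029 for Stat3 in limma. Of the counts per gene list, 29 of 94 moved by over 1.5 times in at least 1 alternative. The cause of these shifts was not tested. With no filter on low counts 3192 genes were called in −E−N against +E+N, so the minimum of 20 counts left out genes that the depth allowed to be called. Of the genes given against −N and −E, the block changed the call of Ddr2 alone.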
